A study of Mus musculus with 8 samples.

Results

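The genes described here are 10 markers of embryonic macrophages and of the clearance of dead cells: Csf1r, Cx3cr1, C1qa, C1qb, C1qc, Mrc1, F13a1, Lyve1, Axl and Mertk. They were chosen by symbol, on primary chromosomes, and each stood on 1 row of a table of 52778 rows. RNA sequencing was done on ventricular heart tissue of mouse embryos at embryonic day 11.5, with 4 conditional knockout libraries (cKO) and 4 control libraries. Per the series text, the cKO embryos were Rps19bp1 fl/fl; Xmlc2-Cre +/−, a cross that directs deletion to cardiomyocytes, so macrophages are not the targeted cells. Which alleles the control embryos carried is not given in the sources used here, and neither is whether embryos were pooled. The genotype field gives C57BL/6 WT for all 8 libraries, and the groups rest on the treatment field and the titles. The extraction text names cortical neurons, but 14 cardiomyocyte genes summed to 54520 to 59568 TPM in each library and 10 neuronal genes to 5.89 to 14.6 TPM. TPM is transcript abundance per length, scaled to a total of 1000000 in each library.

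Macrophages enter the embryonic heart early, first from precursors that arise in the yolk sac. They depend on the growth factor receptor Csf1r and take up dying cells. Receptors of the TAM family (Tyro3, Axl and Mertk) recognise dying cells through the bridging proteins Gas6 and Pros1, and C1q, the first component of the classical complement pathway, binds dying cells and is made largely by macrophages.

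The targeted gene Rps19bp1 stood at 15.2, 11.8, 13.7 and 19.2 TPM in cKO libraries 1 to 4 and at 40.9, 44.2, 34.7 and 40.05 TPM in control libraries 1 to 4. The groups did not overlap (log2 change -1.37, limma adjusted p = 0.000508). TPM keeps no read depth, so the precision given is that between libraries. Between 15336 and 15752 rows reached 1 TPM in a library. Mitochondrial transcripts took 13.2% to 16.2% of TPM in cKO and 11.4% to 12.2% in control. The row of the ribosomal RNA gene Rn18s-rs5 was highest in cKO library 4, at 6349 TPM against 1760 to 4794 TPM in the other 7. In the bulk tissue, more cells of a type and more RNA per cell cannot be told apart.

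Of the 10 genes, Axl rose in cKO and 9 had no call. The genes typical of tissue macrophages (Csf1r, the C1q genes, Mrc1 and Cx3cr1) stood higher than in control in cKO libraries 1 to 3, where their means were 1.67 to 2.24 times the control means, but not in cKO library 4. Lyve1, Mertk and F13a1 did not follow that pattern. The test was limma's moderated linear model on log2(TPM + 1) over 15541 rows with a mean of at least 1 TPM, with Benjamini-Hochberg adjustment, and a gene was called at an adjusted p under 0.05. F13a1 was under that mean, so 9 of the 10 genes were tested. Over all tested rows 994 were called (6.40%), 336 of them higher (2.16%) and 658 lower (4.23%), so 1 call among 9 genes is near the background. Groups without overlap were found for 1 of the 9 (Axl) and for 15.6% of all tested rows. The balance of directions over all rows depends on scaling, with 383 higher and 380 lower after quantile normalization, 383 and 419 after median-ratio scaling, and 388 and 396 once mitochondrial and globin genes were taken out of the total. The fitted log2 change had a median of 0.39 over the 9 genes and of -0.02 over all tested rows, and 8 of the 9 were fitted higher under each of these scalings.

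**Figure D1:**
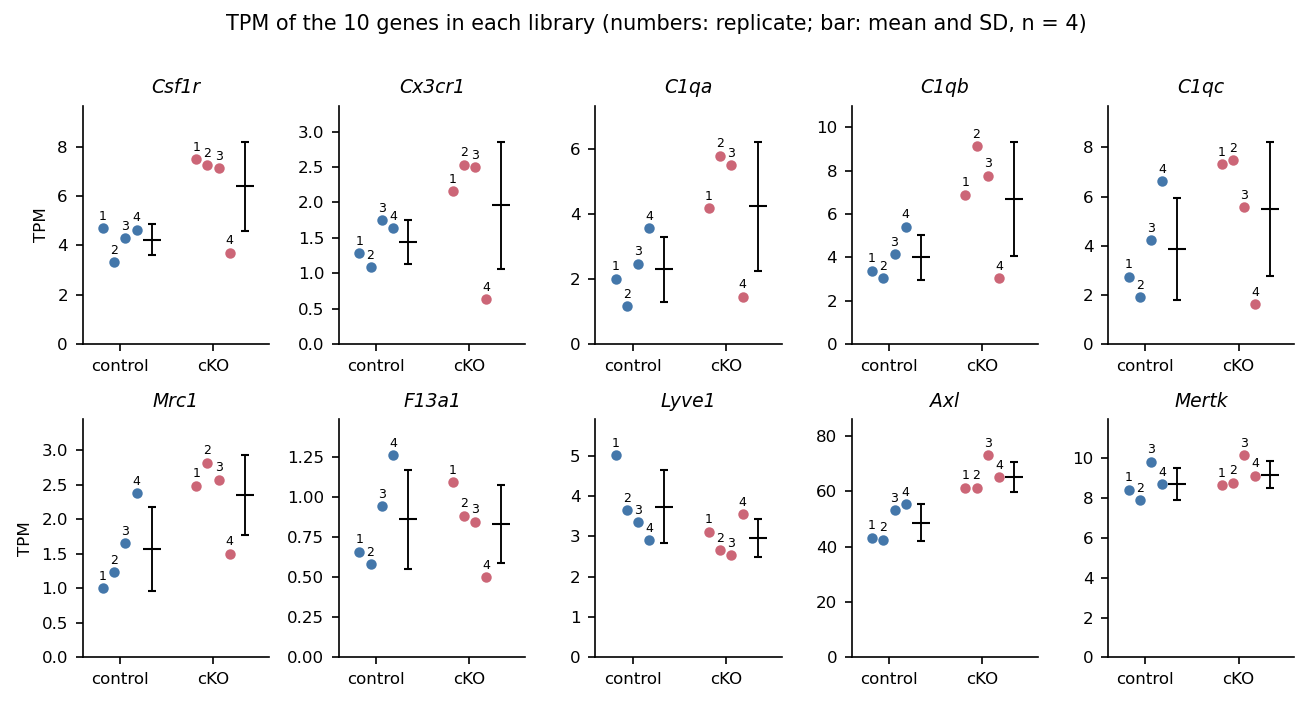
TPM (linear axes from 0) of the 10 genes in each control (blue) and cKO (red) library, with replicate numbers at the points and the mean and SD (n = 4) at the side. In the 7 panels from Csf1r to F13a1, cKO replicate 4 is the lowest cKO point, while the Axl panel shows all cKO points above all control points.

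Csf1r (chr18:61105572-61131139, plus strand, GRCm38) encodes the receptor for the growth factors Csf1 and Il34, on which most tissue macrophages depend. It stood at 7.49, 7.24, 7.11 and 3.70 TPM in cKO libraries 1 to 4 and at 4.68, 3.32, 4.29 and 4.64 TPM in control libraries 1 to 4. The first 3 cKO libraries lay above every control library, and the fourth lay below 3 of the 4 controls. The means were 6.38 ± 1.80 TPM (SD, n = 4) in cKO and 4.23 ± 0.634 TPM (SD, n = 4) in control. The fitted log2 change was 0.47 (SE 0.185, 95% interval 0.06 to 0.88, limma adjusted p = 0.162), so Csf1r was not called. Without cKO replicate 4 it was 0.67 (limma adjusted p = 0.0121). The row overlaps the microRNA gene Mir6983 on its own strand and Gm52352 on the other.

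Cx3cr1 (chr9:120048683-120068296, minus strand) encodes the receptor for the chemokine Cx3cl1 and marks yolk-sac derived macrophages and microglia. It stood at 2.15, 2.53, 2.50 and 0.636 TPM in cKO and at 1.29, 1.08, 1.745 and 1.64 TPM in control, libraries 1 to 4 in order. Library 4 of cKO was the lowest of all 8 and the other 3 cKO libraries were the highest. Its fitted log2 change was 0.22 (SE 0.234, 95% interval -0.30 to 0.74, limma adjusted p = 0.616), and 0.48 without cKO replicate 4 (limma adjusted p = 0.0622). It was smaller, at 0.115 and 0.119, without cKO replicates 2 and 3.

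C1qa, C1qb and C1qc encode the chains of C1q, which are assembled into one molecule. The genes lie side by side on the minus strand in 18719 bases of chr4:136880126-136898844 (GRCm38), in the order C1qb, C1qc, C1qa, with 3600 and 2979 bases between them. C1qa stood at 4.17, 5.80, 5.50 and 1.46 TPM in cKO libraries 1 to 4 and at 2.01, 1.16, 2.47 and 3.57 TPM in control libraries 1 to 4. C1qb stood at 6.89, 9.13, 7.77 and 3.03 TPM in cKO and at 3.39, 3.04, 4.14 and 5.41 TPM in control. C1qc stood at 7.32, 7.48, 5.57 and 1.62 TPM in cKO and at 2.74, 1.90, 4.22 and 6.62 TPM in control. For C1qa and C1qb, cKO libraries 1 to 3 lay above all controls. For C1qc, control library 4 lay above cKO library 3. In library 4 of cKO the C1q genes were at 28.3% (C1qa), 38.1% (C1qb) and 23.9% (C1qc) of the mean of the other 3 cKO libraries.

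The group means of C1qa were 4.23 ± 1.98 TPM (SD, n = 4) in cKO and 2.30 ± 1.00 TPM (SD, n = 4) in control. The fitted log2 changes were 0.61 for C1qa (95% interval -0.11 to 1.33, limma adjusted p = 0.284), 0.57 for C1qb (-0.01 to 1.15, limma adjusted p = 0.223) and 0.37 for C1qc (-0.50 to 1.25, limma adjusted p = 0.613). None of the C1q genes was called with limma over all 8 libraries, and 0 of the 3 had an unadjusted p under 0.05. Without cKO replicate 4 the log2 changes were 0.94 for C1qa (limma adjusted p = 0.0440), 0.85 for C1qb (limma adjusted p = 0.0194) and 0.76 for C1qc (limma adjusted p = 0.143). That of C1qc was also larger without control replicate 4 (0.62) and smaller without cKO replicate 1 (0.209) or 2 (0.20) or control replicate 2 (0.157).

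Promoter windows, from 250 bases before to 50 bases after the RefSeq start (GRCm38.p6), were found for 7 of the 10 genes. Those of C1qb and C1qc are shown because these neighbours varied together over the libraries, and those of Axl and Mertk because these related receptors differed in their change. Capitals mark the letters GAGGAA, or TTCCTC on the other strand, the core of the site bound by PU.1, the product of Spi1 and a main regulator of macrophage genes.
C1qb, chr4:136886151-136886450, minus strand: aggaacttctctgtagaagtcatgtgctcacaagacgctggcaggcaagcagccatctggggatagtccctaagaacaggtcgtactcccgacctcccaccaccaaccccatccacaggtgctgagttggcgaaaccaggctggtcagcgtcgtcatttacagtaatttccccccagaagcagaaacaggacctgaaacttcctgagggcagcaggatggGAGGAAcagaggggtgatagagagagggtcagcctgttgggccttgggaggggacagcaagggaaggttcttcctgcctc
C1qc, chr4:136892865-136893164, minus strand: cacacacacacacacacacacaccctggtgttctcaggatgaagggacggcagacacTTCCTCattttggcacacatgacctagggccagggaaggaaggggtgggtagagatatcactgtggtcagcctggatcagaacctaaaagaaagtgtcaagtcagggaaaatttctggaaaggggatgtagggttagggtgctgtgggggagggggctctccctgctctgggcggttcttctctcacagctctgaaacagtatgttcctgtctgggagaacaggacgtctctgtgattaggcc
Axl, chr7:25788684-25788983, minus strand: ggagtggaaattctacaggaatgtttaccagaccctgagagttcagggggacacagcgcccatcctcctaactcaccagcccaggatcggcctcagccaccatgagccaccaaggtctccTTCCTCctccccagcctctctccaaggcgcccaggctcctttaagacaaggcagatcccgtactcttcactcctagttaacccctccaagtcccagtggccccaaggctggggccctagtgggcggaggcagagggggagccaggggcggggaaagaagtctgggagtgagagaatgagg
Mertk, chr2:128698665-128698964, plus strand: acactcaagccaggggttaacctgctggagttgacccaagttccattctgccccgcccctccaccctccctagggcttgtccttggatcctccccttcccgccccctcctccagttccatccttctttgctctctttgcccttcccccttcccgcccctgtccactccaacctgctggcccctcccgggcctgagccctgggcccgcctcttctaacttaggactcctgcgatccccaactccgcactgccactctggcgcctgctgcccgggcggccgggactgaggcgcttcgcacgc
The core was found in the windows of 5 of the 7 genes (C1qb, C1qc, Mrc1, F13a1 and Axl) and in 28.28% of 32851 promoter windows of the same length. It starts at -30 from the start site in C1qb, at -193 in C1qc and at -130 in Axl, and the letters are not in the windows of Mertk and Cx3cr1. The letters TGCTGA, or TCAGCA on the other strand, part of the site bound by MAF factors, share no base with the core in these windows. They were found in C1qb alone of the 7 and in 19.48% of all windows.

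Mrc1 (chr2:14229414-14332023, plus strand) encodes the mannose receptor CD206 of tissue macrophages, which is also found on some endothelium. It stood at 2.49, 2.82, 2.58 and 1.51 TPM in cKO libraries 1 to 4 and at 1.00, 1.24, 1.65 and 2.38 TPM in control libraries 1 to 4. The first 3 cKO libraries lay above all controls and cKO library 4 fell among them. In the fit the log2 change was 0.39 (SE 0.186, 95% interval -0.02 to 0.81, limma adjusted p = 0.233), and 0.53 without cKO replicate 4 (limma adjusted p = 0.109). The row holds Mir511 on the same strand.

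F13a1 (chr13:36867178-37050244, minus strand) encodes the A subunit of coagulation factor XIII, made by resident macrophages and by megakaryocytes. It stood at 1.09, 0.884, 0.846 and 0.502 TPM in cKO and at 0.658, 0.583, 0.943 and 1.26 TPM in control. The groups overlapped, with means of 0.831 ± 0.245 and 0.861 ± 0.307 TPM (SD, n = 4, exact two-sided permutation p = 0.914). Megakaryocyte and platelet genes are given beside it: 12 of them summed to 28.6 to 40.3 TPM in cKO and to 38.8 to 62.4 TPM in control. None was at 0 in all libraries, and 9 of 11 tested were fitted lower. Over all 8 libraries 1 was called lower (Gp1bb, log2 change -0.70, limma adjusted p = 0.0353), where 4.23% of all tested rows were called lower. The Gp1bb call was lost without cKO replicate 4 (limma adjusted p = 0.0521). Their part in the F13a1 values was not tested.

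Lyve1 (chr7:110850607-110862953, minus strand) encodes a hyaluronan receptor of a subset of cardiac macrophages and of lymphatic and some embryonic endothelium. It stood at 3.12, 2.66, 2.53 and 3.55 TPM in cKO libraries 1 to 4 and at 5.01, 3.66, 3.36 and 2.91 TPM in control libraries 1 to 4. Its order ran against that of the macrophage genes, since cKO library 4 was the highest in its group and control library 4 the lowest. Lyve1 had a log2 change of -0.25 (SE 0.14, 95% interval -0.56 to 0.07, limma adjusted p = 0.328), and of -0.124 without control replicate 1. The 22 endothelial genes summed to 1264 to 1432 TPM in cKO and 1236 to 1326 TPM in control. None of them was at 0 in all libraries, and 0 of 21 tested were called with limma (6.40% of all tested rows), 5 having an unadjusted p under 0.05 (23.7% of all tested rows). Their part in the Lyve1 values was not tested.

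**Figure D2:**
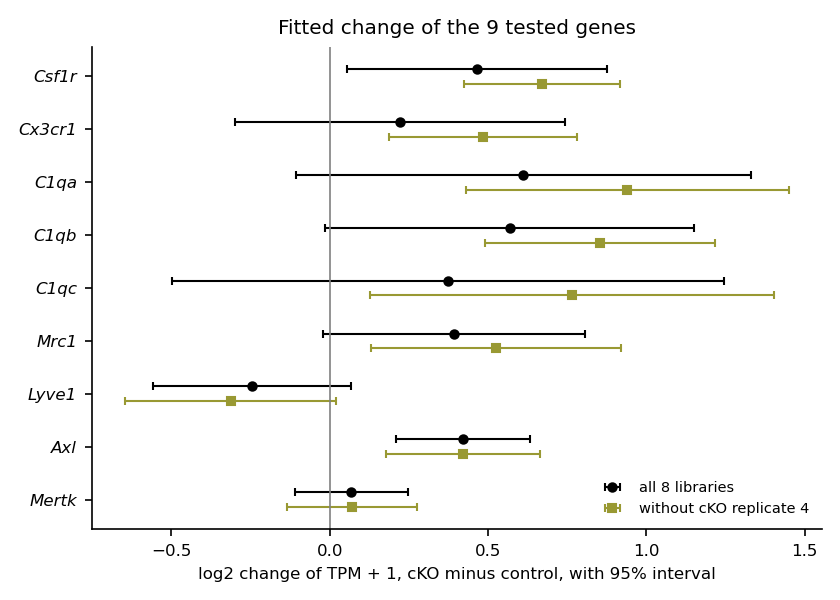
Fitted log2 change (cKO minus control, log2 of TPM + 1) with its 95% interval for the 9 tested genes, with all 8 libraries (black) and without cKO replicate 4 (olive). The change of Csf1r moves from 0.47 to 0.67 and that of C1qa from 0.61 to 0.94, while that of Axl stays at 0.42.

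Axl rose. The gene (chr7:25756500-25788924, minus strand) encodes a TAM receptor that binds Gas6, and it is made by mesenchymal cells as well as by macrophages. It stood at 61.3, 61.3, 73.0 and 65.1 TPM in cKO libraries 1 to 4 and at 43.2, 42.5, 53.2 and 55.4 TPM in control libraries 1 to 4. Every cKO library lay above every control library, replicate 4 included, which held for 5.33% of all tested rows. The means were 65.2 ± 5.49 TPM (SD, n = 4) in cKO and 48.6 ± 6.68 TPM (SD, n = 4) in control, 1.34 times the control level. The fitted log2 change was 0.42 (SE 0.0952, 95% interval 0.21 to 0.63, limma adjusted p = 0.0322). The call was lost without cKO replicate 1 (limma adjusted p = 0.0612), 3 (0.0785) or 4 (0.0523) and without control replicate 1 (0.0816) or 2 (0.0760), with log2 changes of 0.36 to 0.45 in these fits. Cushion mesenchyme, fibroblast-lineage and epicardial genes moved in the same direction: 15 of them summed to 1224 to 1478 TPM in cKO and to 851 to 1033 TPM in control, none was at 0, and 8 of 15 were called, each of them higher, where 2.16% of all tested rows were called higher. Among them Col3a1 had a log2 change of 0.40 and Pdgfra of 0.68. Their part in the Axl result was not tested.

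Mertk (chr2:128698915-128803162, plus strand), the TAM receptor most tied to uptake by macrophages, stood at 8.64, 8.76, 10.1 and 9.11 TPM in cKO libraries 1 to 4 and at 8.41, 7.88, 9.82 and 8.68 TPM in control libraries 1 to 4. The groups overlapped almost wholly. In the fit Mertk differed by 0.07 on the log2 scale, with a 95% interval of -0.11 to 0.25 (limma adjusted p = 0.653). The value was 0.0239 without cKO replicate 3, 0.0275 without control replicate 2 and 0.122 without control replicate 3. Tyro3, the third TAM receptor, had means of 12.1 ± 0.80 and 11.8 ± 1.55 TPM (SD, n = 4) and a log2 change of 0.05 (limma adjusted p = 0.805), which turned to -0.0422 without control replicate 2. A comparison within libraries, chosen after these values were seen, set Axl against each of the other receptors. The log2 level of Axl over that of Mertk was 2.70 ± 0.02 (SD, n = 4) in cKO and 2.35 ± 0.14 (SD, n = 4) in control. That over Tyro3 was 2.33 ± 0.15 in cKO and 1.96 ± 0.20 in control (SD, n = 4). In neither did the groups overlap (exact two-sided permutation p = 0.0286 for each of the 2 comparisons, also 0.0286 after adjustment, the smallest that 4 against 4 can give). The adjustment does not cover the choice of the comparisons from these values, so the p-values are no further support for the Axl result.

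By level per transcript length, Axl was the most abundant of the 10 genes in every library (42.5 to 73.0 TPM), and Mertk came next at 7.88 to 10.1 TPM in most. The other 8 genes lay between 0.502 and 9.13 TPM. Among C1qb, C1qc, Csf1r, C1qa and Lyve1 the order changed from library to library.

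The macrophage genes varied more between libraries of a group than most genes. For 6 of the 9 tested genes (C1qc 0.71, C1qa 0.58, C1qb 0.47, Cx3cr1 0.40, Csf1r 0.32 and Mrc1 0.30) the residual SD within groups on the log2 scale was above 0.26, the 90th percentile of all tested rows, whose median was 0.11. Lyve1 had 0.22, Axl 0.16 and Mertk 0.11. The 6 genes had means of 1.70 (Cx3cr1) to 5.35 TPM (C1qb), against 8.93 for Mertk and 56.9 for Axl. Rows of like level were not compared, so the part of low level in this spread was not tested. Library 4 of cKO was the lowest cKO library for 6 of the 9 tested genes, and for F13a1, while it was so for 24.8% of all tested rows. That place was not particular to macrophage genes. In other lists it was lowest in its group for 7 of 11 tested megakaryocyte, 6 of 10 complement and 15 of 29 clearance genes. For mesenchymal and epicardial genes library 4 was lowest in 6 of 15, for endothelial genes in 6 of 21 and for cardiomyocyte genes in 2 of 14. Without cKO library 4, 3 of the 9 tested genes were called (Csf1r, C1qa and C1qb), where the background was 6.02% (2.18% higher). In the same fit 6 of 9 lay above all controls (those named with a call, Mrc1, Cx3cr1 and Axl), where the background was 8.08%. Replicate 4 was singled out by the low values of most of the 9 genes, so leaving it out raises their cKO means. The counts and adjusted p-values without it, here and for these genes above, are therefore descriptions and no support for a change. The labels give no ground for leaving out cKO replicate 4. Its level of Rn18s-rs5 was the highest of the 8 libraries (6349 TPM), with control library 4 next at 4794 TPM. The part of that in these values was not tested.

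Correlations were computed over the 8 libraries on log2(TPM + 1) for all 45 pairs of the 10 genes, with exact permutation p-values adjusted over the 45. Those with Axl are not given, since its groups do not overlap. C1qa and C1qb were tied most closely (Pearson r = 0.98, exact adjusted p = 0.00446, Spearman rho = 0.98, exact adjusted p = 0.00893), and r was 0.99 without the 2 libraries farthest from the median of C1qa. For C1qa and Cx3cr1, r was 0.92 (exact adjusted p = 0.0134, rho = 0.95, exact adjusted p = 0.0128) and 0.93 without the 2 farthest libraries. For Csf1r and C1qa, r was 0.93 (exact adjusted p = 0.0153, rho = 0.86, exact adjusted p = 0.0371), again 0.93 without the 2 farthest. Among the 21 pairs of Csf1r, Cx3cr1, C1qa, C1qb, C1qc, Mrc1 and F13a1, r ran from 0.53 to 0.98 with a median of 0.89. By exact permutation 14 pairs passed after adjustment. F13a1 passed with C1qc alone (r = 0.89, exact adjusted p = 0.0189, rho = 0.79, exact adjusted p = 0.0661) and, by r over the 8 libraries, was tied less closely to the rest. On deviations from the group means F13a1 did not stand apart. Its r then ran from 0.74 (Cx3cr1) to 0.94 (C1qc), and that of the pairs without F13a1 from 0.66 to 0.98.

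Lyve1 ran the other way. With Mrc1 its r was -0.92 (exact adjusted p = 0.00502, rho = -0.95, exact adjusted p = 0.0128), -0.89 without the 2 libraries farthest from the median of Mrc1 and also -0.89 on deviations from the group means. With the 7 genes of those pairs, F13a1 among them, the r of Lyve1 lay between -0.92 and -0.53. After adjustment by exact permutation 2 of these 7 pairs passed. Mertk had r between 0.20 and 0.44 with the same 7 genes, and 0 of its 7 pairs passed. These values depended on few libraries: r lay between 0.32 and 0.64 without cKO replicate 4, and between -0.28 and 0.78 without the 2 libraries farthest from each median.

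**Figure D3:**
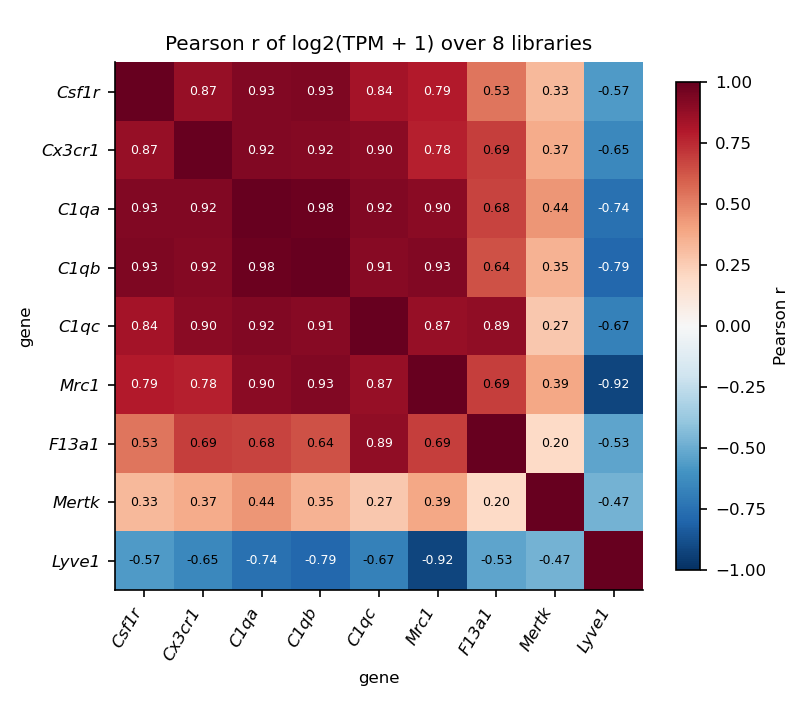
Pearson r of log2(TPM + 1) over the 8 libraries for pairs of 9 genes (both axes list genes, colour gives r, Axl is left out). The 7 genes from Csf1r to F13a1 are positive with each other (r of 0.53 to 0.98), F13a1 less closely than most. Mertk has r of 0.20 to 0.44 with these 7, and Lyve1 is negative with each of the other genes.

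The pattern most like the mean of the C1q genes was looked for among 15522 tested rows, as a description over 8 libraries. The highest r were those of Zc3h7a (0.97), Hipk4, Nxf1, Tspan14 and Fcrls (each 0.96) and Rtp4 (0.95). Of these 6, Fcrls, an Fc receptor-like gene of macrophages and microglia, is on the macrophage list. It stood at 2.02, 2.56, 2.59 and 0.991 TPM in cKO libraries 1 to 4 and at 0.737, 0.667, 1.26 and 1.80 TPM in control libraries 1 to 4, again with cKO library 4 apart from its group.

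A list of 32 other genes typical of macrophages and myeloid cells had 17 tested members. With limma 0 were called, where 6.40% of all tested rows were called, so for 17 genes this is near the background. An unadjusted p under 0.05 was found for 2, against 23.7% of all tested rows. Of the 17, 12 were fitted higher and 5 lower, with a median log2 change of 0.05. The members with the smallest p were Lcp1 (log2 change 0.15, limma adjusted p = 0.155), which also marks other blood cells, Fcrls (0.52, limma adjusted p = 0.195) and Coro1a (0.20, limma adjusted p = 0.417). The list summed to 183.3, 178.1, 187.9 and 139.5 TPM in cKO libraries 1 to 4 and to 132.2, 153.9, 164.9 and 162.7 TPM in control libraries 1 to 4. The first 3 cKO libraries were above all controls and the fourth was below 3 of them. Library 4 was the lowest cKO library for 13 of the 17 tested genes. Defining genes were scarce: Adgre1, the F4/80 antigen, lay between 0.226 and 1.36 TPM, Ptprc, the pan-leukocyte antigen CD45, between 0.120 and 0.396 TPM, and Cd163 was listed at 0 throughout. Much of the sum came from Lyz2 (51.2 to 90.7 TPM), which can share reads with its close copy Lyz1.

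**Figure D4:**
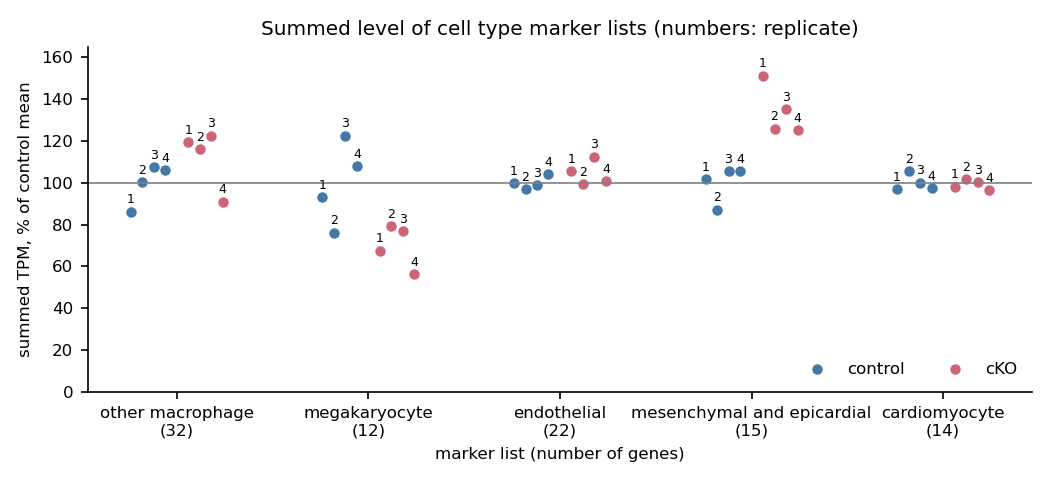
Summed TPM of marker lists in each library as a percentage of the control mean (linear axis from 0, replicate numbers at the points, grey line at the control mean). The 15 mesenchymal and epicardial genes sum to more in all cKO libraries than in all controls, and in the 32 other macrophage genes cKO replicate 4 lies apart from the other cKO libraries.

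Csf1, which encodes the main growth factor of macrophages and is made by non-macrophage cells, rose. It stood at 14.9, 16.1, 14.2 and 14.7 TPM in cKO and at 12.3, 11.7, 12.7 and 11.7 TPM in control, so the groups did not overlap. The log2 change was 0.29 (SE 0.060, limma adjusted p = 0.0248), and the call was lost without cKO replicate 1 (limma adjusted p = 0.0628) or 2 (0.0535) and without control replicate 1 (0.0567), 2 (0.0639) or 4 (0.0583). Il34, the other ligand of Csf1r, was near 0, at 0.130 to 0.185 TPM in cKO and 0 to 0.157 TPM in control. Cx3cl1, the ligand of Cx3cr1, had means of 10.6 ± 1.07 and 12.98 ± 1.08 TPM (SD, n = 4) and was not called (log2 change -0.27, limma adjusted p = 0.0863). Of 8 tested genes in this group of ligands and macrophage transcription factors, Csf1 was the 1 called, near the 6.40% of all tested rows. Spi1, which encodes PU.1, was at 1.67, 1.82, 1.30 and 0.543 TPM in cKO and 1.06, 0.905, 1.02 and 2.18 TPM in control (log2 change 0.02, limma adjusted p = 0.97), with a sign that turned under quantile normalization (-0.0202) and in 5 of 8 fits without 1 library (between -0.0837 and 0.206 in all). For Maf the log2 difference was 0.26 (limma adjusted p = 0.113).

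Among 35 genes of dead cell clearance, 29 were tested, 0 were called higher and 2 lower, with a median log2 change of 0.05. Over all tested rows 6.40% were called (4.23% lower and 2.16% higher), so these counts are near the background. Itgb3, the beta-3 integrin chain that pairs with Itgav to bind Mfge8 and is also a platelet integrin, fell from 10.3 ± 1.36 to 6.66 ± 0.827 TPM (SD, n = 4), at a fitted log2 difference of -0.56 (limma adjusted p = 0.0158). The megakaryocyte genes given above were also mostly fitted lower, and their part in the Itgb3 result was not tested. Rac1, a small GTPase of the cytoskeleton that drives engulfment and much else, fell from 267 ± 12.8 to 224 ± 11.2 TPM (SD, n = 4), at a fitted log2 difference of -0.25 (limma adjusted p = 0.0259). The Rac1 call was lost without any of cKO replicates 1 to 3 or control replicates 1 and 3 (limma adjusted p between 0.0537 and 0.0764), after quantile normalization (limma adjusted p = 0.0739) and once mitochondrial and globin genes were taken out of the total (limma adjusted p = 0.0514). The bridging proteins were not called. Gas6 stood at 59.4 ± 8.35 TPM in cKO and 46.6 ± 5.05 TPM in control (SD, n = 4), at a fitted log2 difference of 0.34 (limma adjusted p = 0.0833), and Pros1 at 11.98 ± 0.848 and 11.01 ± 0.318 TPM (SD, n = 4), at a fitted log2 difference of 0.11 (limma adjusted p = 0.336). Ucp2, a mitochondrial carrier known to support continued uptake of dead cells, had a log2 difference of 0.39 (limma adjusted p = 0.0613) and was not called. In 2 of 18 alternatives it was called. These were the fit without cKO replicate 4 (0.48, limma adjusted p = 0.0187) and that after quantile normalization (0.45, limma adjusted p = 0.0407).

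Among 20 other complement genes, 10 were tested and 3 were called, all higher: Cd55, Serping1 and Colec12. The background for calls higher in cKO was 2.16%, and the median log2 change of the 10 was 0.29. Without cKO replicate 4, Clu was called as well. Cd55 and Serping1 encode inhibitors of complement. Cd55, which speeds the decay of the C3 convertases, rose from 2.42 ± 0.540 to 4.75 ± 0.510 TPM (SD, n = 4), at a fitted log2 difference of 0.76 (limma adjusted p = 0.00932). Serping1, the C1 inhibitor that blocks the proteases bound to C1q, rose from 16.9 ± 1.89 to 22.7 ± 2.61 TPM (SD, n = 4), at a fitted log2 difference of 0.41 (limma adjusted p = 0.0376). Colec12, a scavenger receptor with a collagen-like stalk, rose from 55.4 ± 5.0 to 68.6 ± 2.11 TPM (SD, n = 4), at a fitted log2 difference of 0.31 (limma adjusted p = 0.0232). For each of the 3 the groups did not overlap. The rows of Cd55 and Colec12 overlap genes on the other strand (Cd55os for Cd55), whose reads may not be told apart.

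Cd55 kept its call when any single library was left out. The call of Colec12 was lost without any of cKO replicates 1 to 3 or control replicates 1, 2 and 4 (between 0.0519 and 0.0644), and that of Serping1 without any library other than cKO replicate 4 (between 0.05005 and 0.0955). The proteases that C1q activates and the protein they lead to were scarce in the tissue. C1ra stood at 0.0841 to 0.178 TPM in cKO and 0.0891 to 0.244 TPM in control, C1s1 was listed at 0 in all 8 libraries, and C3 stood at 0.481 to 0.872 TPM in cKO and 0.210 to 0.711 TPM in control. Fibroblast-lineage and epicardial genes, which moved in the same direction as the 3 called genes, are given beside Axl, and their part in these results was not tested.

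**Figure D5:**
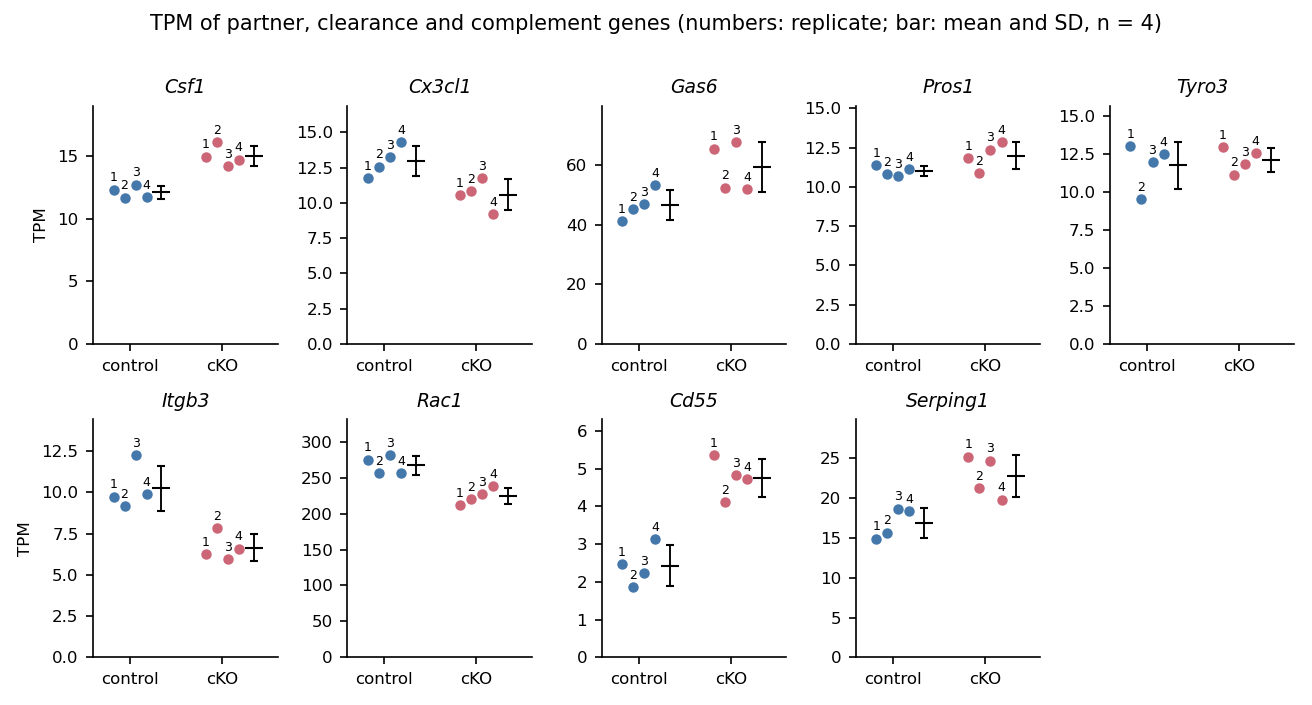
TPM (linear axes from 0) of ligand, receptor, clearance and complement genes in each control (blue) and cKO (red) library, with replicate numbers at the points and the mean and SD (n = 4) at the side. The groups do not overlap for Csf1, Itgb3, Rac1, Cd55 and Serping1, and they overlap for Cx3cl1, Gas6, Pros1 and Tyro3.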

How the data were processed

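Ventricular RNA of 8 libraries (4 cKO, 4 control) was measured by RNA sequencing, and the authors deposited 1 table of TPM values, which divide reads by transcript length and scale each library to 1000000. Per the submitters' processing notes, GRCm38, FastQC, Trim Galore 0.6.7, HISAT2 2.2.1, StringTie 2.2.1, featureCounts and DESeq2 were used. Which of them made the TPM values, the annotation and the use of strand are not given in the sources used here, so 4 of the 10 genes, whose rows overlap another row, are less certain. The texts disagree on library type (a stranded mRNA kit or ribosomal RNA depletion), and all libraries carry the same batch label. Gene positions are those of the table, and all 10 match the RefSeq start and end on GRCm38.p6.

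Values were taken as log2(TPM + 1), which understates changes of low genes, and rows with a mean of at least 1 TPM over the 8 libraries were tested with limma 3.58.1 in R 4.3.3 (lmFit, eBayes with a trend, group as the only term, two-sided, Benjamini-Hochberg over 15541 rows). Exact permutation tests used the 70 assignments of 8 libraries to groups of 4, and correlations all orderings of the 8 libraries. The fit was tested on simulated data. Figures were drawn with matplotlib 3.10.9. The 10 genes and all lists were chosen with earlier results of these data known. Named genes were the 10, the ligands, receptors and proteases that act with them, the called genes and the 3 with the smallest p of each related list, and the 6 rows most like the C1q mean. The related lists share 6 genes among them, and 1 complement gene is not reported here. Whether each library came from a single embryo or from a pool is not given in the sources used here. The p-values measure the spread between these libraries. The alternatives were other pseudocounts, filters, scalings and variance settings, a replicate block and leaving out each library.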

Additional observations from a re-analysis of the deposited data

Results flagged for a closer look

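Within a group of 4 libraries, 1 library stood apart by Dixon's test (the gap to its nearest neighbour over the range, on log2(TPM + 1), above its 95% critical value) in 4 of 84 combinations of gene and group, over the 42 genes whose values are examined singly and not all genes of the lists. Chance flags about 1 in 20 groups. Csf1r (0.922) and Cx3cr1 (0.853) were low in cKO replicate 4, Spi1 was high in control replicate 4 (0.851), and Lyz2 was low in control replicate 1 (0.859). Other genes of the lists passed too, and those named here were picked after their values were seen. Fcgr3 (0.835) and Itgam (0.867) were low in cKO replicate 4, while Megf10 was high in cKO replicate 2 (0.897) and Ctss low in control replicate 2 (0.887). The C1q genes did not pass it, with 0.732 for C1qa, 0.729 for C1qb and 0.782 for C1qc, each for a low cKO replicate 4.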

How the results depend on the processing

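Over 18 alternatives the count of called rows (994) was 347 with no filter on low values, 609 without a trend in eBayes, 420 with the replicate block and 388 to 936 when single libraries were left out. It was 400 and 420 without cKO replicates 1 and 3, and 388, 445, 412 and 565 without control replicates 1 to 4. Of the 10 genes, 1 was called in the reported fit, 0 with no filter and 0 without a trend in eBayes (Axl, limma adjusted p = 0.111 and 0.0580), and 0 to 3 when single libraries were left out. The median log2 change of the tested genes stayed between 0.23 and 0.53. The deviations of same-numbered libraries had correlations between -0.09 and 0.07, and 2 of 4 cKO libraries correlated best with their own number. A weak pairing could leave such values, so whether the numbers pair the samples is not known. With the replicate block Axl and Cd55 kept their calls, while Csf1 (limma adjusted p = 0.0793), Itgb3 (0.0573), Rac1 (0.0712), Colec12 (0.0543) and Serping1 (0.0739) did not. With no filter the calls of Itgb3 (limma adjusted p = 0.0622), Rac1 (0.0658), Colec12 (0.0686) and Serping1 (0.117) were lost, and without a trend in eBayes those of Rac1 (0.0536) and Serping1 (0.0606). A pseudocount of 5, which by construction shrinks the log2 changes of low genes, gave 0.29 for Csf1r, 0.103 for Cx3cr1, 0.32 for C1qa, 0.356 for C1qb, 0.228 for C1qc, 0.163 for Mrc1 and -0.13 for Lyve1, and array weights gave 0.0331 for Mertk. The log2 change of Tyro3 turned without control replicate 2 (-0.0422) and lay between that and 0.0961 when single libraries were left out. That of Spi1 turned after quantile normalization (-0.0202), without cKO replicates 1 (-0.0575) and 2 (-0.0837) and without control replicates 1 (-0.0216), 2 (-0.0583) and 3 (-0.0292), with 0.206 as its highest value when single libraries were left out. The cause was not tested. Of 567 values of single genes and pairs, 512 kept their direction and their side of the threshold, 43 lost a call and 5 gained one. In each library 8 of the 10 genes lie under 10 TPM, and the read depth behind them is unknown.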
